A study of Homo sapiens with 2 samples.

Results

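Fibronectin, ECM1, the fibulins and 3 matricellular proteins were followed in cells of A375, an established melanoma line of human origin. The 10 genes were FN1, ECM1, FBLN1, FBLN2, FBLN5, EFEMP1, EFEMP2, SPARC, THBS1 and TNC. They were found by their gene symbol in the array platform's annotation, which gave 15 of the 45033 array rows and 10 of the 16583 named genes. Of the 10 genes, 7 had 1 row and 3 had several: FBLN1 had 4, and FN1 and ECM1 had 2 each. One single-colour array held RNA of A375 cells with a lentiviral BMI1 short hairpin (shBMI-1), and the other RNA of A375 cells with the empty lentivirus (empty vector). Both cultures were otherwise grown alike, and the labels give neither the number of hairpins used nor whether the cells were a pool or 1 clone. BMI1 belongs to the Polycomb proteins, which keep genes repressed through chromatin, and the comparison asked what its silencing changed.

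The extracellular matrix is the secreted protein network around cells. Fibronectin is a large glycoprotein that cells pull into fibrils through integrins, and fibulins are calcium-binding glycoproteins that join elastic fibres and basement membranes. Matricellular proteins such as SPARC, thrombospondin 1 and tenascin C do not mainly bear load but alter how cells attach to the matrix and respond to growth factors. Melanoma cells make many of these proteins themselves, and fibronectin, SPARC and tenascin C are often studied in melanoma invasion.

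The stretches of genome before the starts of 6 of these genes are shown because these 6 differed by at least 1.5-fold between the arrays. Each is the 250 bases before the RefSeq start of the gene (GRCh38.p14), read 5′ to 3′ on the gene's own strand. Capitals mark every match, on either strand, to the letters TATAAA of a TATA box, GGGCGG of a GC box, TGANTCA of an AP-1 site, TGACGTCA of a cAMP response element or CCAAT. FBLN5 has 2 starts in the table and the outer one is shown. FN1, ECM1 and FBLN5 had the higher values with shBMI-1.
FN1, chr2:215436069-215436318, minus strand: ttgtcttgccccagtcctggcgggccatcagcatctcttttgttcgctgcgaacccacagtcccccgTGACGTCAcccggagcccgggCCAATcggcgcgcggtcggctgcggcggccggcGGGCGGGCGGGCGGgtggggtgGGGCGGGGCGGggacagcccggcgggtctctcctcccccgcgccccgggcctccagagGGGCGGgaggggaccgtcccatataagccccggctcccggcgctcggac
ECM1, chr1:150507859-150508108, plus strand: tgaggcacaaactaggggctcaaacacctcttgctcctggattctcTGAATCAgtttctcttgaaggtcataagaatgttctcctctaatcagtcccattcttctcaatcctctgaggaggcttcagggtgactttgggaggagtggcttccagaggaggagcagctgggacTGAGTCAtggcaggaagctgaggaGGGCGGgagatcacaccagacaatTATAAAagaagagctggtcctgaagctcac
FBLN5, chr14:91947695-91947944, minus strand: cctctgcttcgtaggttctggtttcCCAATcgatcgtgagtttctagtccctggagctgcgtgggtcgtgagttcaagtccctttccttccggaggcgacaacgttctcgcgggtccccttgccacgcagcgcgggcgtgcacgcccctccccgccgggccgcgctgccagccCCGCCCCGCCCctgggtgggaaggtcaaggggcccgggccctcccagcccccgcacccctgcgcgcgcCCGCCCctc
FBLN1, EFEMP2 and THBS1 had the lower values with shBMI-1.
FBLN1, chr22:45502633-45502882, plus strand: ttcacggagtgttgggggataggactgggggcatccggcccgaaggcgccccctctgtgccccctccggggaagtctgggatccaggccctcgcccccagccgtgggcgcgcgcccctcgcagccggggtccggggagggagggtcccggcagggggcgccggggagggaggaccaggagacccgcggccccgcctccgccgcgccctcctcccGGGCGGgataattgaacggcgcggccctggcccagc
EFEMP2, chr11:65872801-65873050, minus strand: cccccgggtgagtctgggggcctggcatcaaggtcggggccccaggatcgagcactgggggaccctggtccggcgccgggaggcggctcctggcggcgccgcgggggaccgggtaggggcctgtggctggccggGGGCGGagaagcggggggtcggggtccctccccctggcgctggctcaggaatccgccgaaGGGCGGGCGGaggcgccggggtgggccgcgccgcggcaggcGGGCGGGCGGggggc
THBS1, chr15:39580829-39581078, plus strand: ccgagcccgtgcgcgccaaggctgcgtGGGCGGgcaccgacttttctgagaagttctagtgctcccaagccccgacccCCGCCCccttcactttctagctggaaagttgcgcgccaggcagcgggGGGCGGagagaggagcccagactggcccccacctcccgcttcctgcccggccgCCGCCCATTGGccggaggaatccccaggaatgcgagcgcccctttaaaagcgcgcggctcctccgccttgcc

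Promoter windows were found for 9 of the 10 genes, 11 windows in all, and EFEMP1 had none in the table. The FN1 window held the only TGACGTCA among the 9 genes with a window, a letter string found in 1.65% of the 35116 promoter windows of that length. It also held 1 CCAAT and 6 GGGCGG, some of them overlapping. The ECM1 window held both TGANTCA matches of the set (6.57% of all windows hold at least 1) and 1 TATAAA (10.7%). The inner FBLN5 window, which is not shown, held the only other TATAAA of the set. GGGCGG was present before 8 of the 9 genes with a window and in 42.6% of all windows, and CCAAT before 3 genes (FN1, FBLN5 and THBS1) and in 32% of all windows. A gene counts if any of its windows held the string, while the shares are per window, so the 2 are not like for like. The SPARC window held none of the 5 strings. The higher and the lower genes did not divide by GGGCGG: each of the 6 windows shown held at least 1. A match is a string of letters in this window only, and binding was not measured.

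Each array gave 45033 linear intensities, with a median of 129.8 for shBMI-1 and 131.2 for the empty vector. With 1 array per group, no value had a replicate error and no test between groups was possible. The only spread at hand was the row SD, the pooled SD of log2 ratios among different rows of one gene. On the log2 scale it was 0.60 for genes averaging 128 to 256 in intensity, 0.42 for 256 to 512, 0.30 for 512 to 1024, and 0.20 for those over 4096. Such rows may stand for different transcripts, and nothing used here says whether they share probes. The row SD measures how far rows of a gene disagree on the same arrays. A difference between the cultures or the arrays that all rows share does not enter it. A ratio many times the row SD, or within it, is thus no test of a difference between the groups. BMI1 itself was at 25.8 with shBMI-1, against 68.6 with the empty vector, a log2 ratio of -1.41 with a row SD of 0.80. Both BMI1 values were below the median of their arrays, and with a pseudocount of 50 the log2 ratio was -0.65. Among melanocyte lineage markers, SOX10 was bright at 6889 with shBMI-1, against 7608 with the empty vector, S100B was at 1452 with shBMI-1, against 1123, and S100A1 had a log2 ratio of -0.06. The pigment cell genes MITF, PMEL, MLANA and TYR lay below the array median on both arrays. Of the markers of other cell types, none of 7 endothelial, 1 of 9 fibroblast, 3 of 6 white blood cell and 5 of 7 epithelial genes measured reached the brightness limit, the array median on at least 1 array. That fibroblast gene was PDGFRB, a growth factor receptor, at 121.0 with shBMI-1, against 426.8 with the empty vector. The rows of the 9 fibroblast markers summed to 661.3 with shBMI-1, against 1151 with the empty vector. This sum and the 2 marker sums below are over rows, so DCN, with 4 rows, counts 4 times. Among white blood cell markers, LAPTM5 was at 19.3 with shBMI-1, against 151.9 with the empty vector, 7.88-fold lower at a row SD of 0.80. CD68, a lysosomal protein, was at 2562 with shBMI-1, against 1607 with the empty vector, and TYROBP had a log2 ratio of -0.83. PTPRC, the defining marker of white blood cells, was at 12.3 with shBMI-1, against 12.9. The rows of that list, CD14 having 2, summed to 2909 with shBMI-1, against 2086 with the empty vector. Among epithelial markers, SFN had a ratio of 0.70, KRT14 0.42, KRT18 -0.22 and KRT8 -0.05. EPCAM was at 17.2 with shBMI-1, against 55.5 with the empty vector, and CDH1 was at 14.1, against 15.3. Both were below the brightness limit. The rows of the list summed to 10898 with shBMI-1, against 11573 with the empty vector. KRT18, whose 2 rows both enter that sum, averaged 3929 with shBMI-1, against 4563. The part of these markers in the results was not tested. In a bulk sample, fewer cells with an RNA and less of it per cell cannot be told apart.

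Of the 10 genes, 3 were higher with shBMI-1 (FN1, ECM1 and FBLN5) and 7 lower, and 9 reached the brightness limit on each of the 2 arrays. EFEMP1 reached it on neither. Over the 9, the median log2 ratio was -0.19, against 0.09 over all 8921 genes that passed the limit. FBLN5, on the higher side, was the only gene of the 9 past 2-fold, beside 6.78% of all genes in either direction and 3.23% on the higher side. By rows, 3 of the 14 past the limit differed by 2-fold (1 each of ECM1, FBLN1 and FBLN5), beside 6.89% of all named rows. At 1.5-fold, 3 of the 9 were higher, beside 10.1% of all genes, and 3 were lower, beside 8.45%. The genes were chosen on their family with these same intensities and ratios in view, so nothing is read from their counts. The same holds for the shares of genes with a ratio as large, or with rows that go one way, given below. Those shares only place each value among the others.

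**Figure D1:**
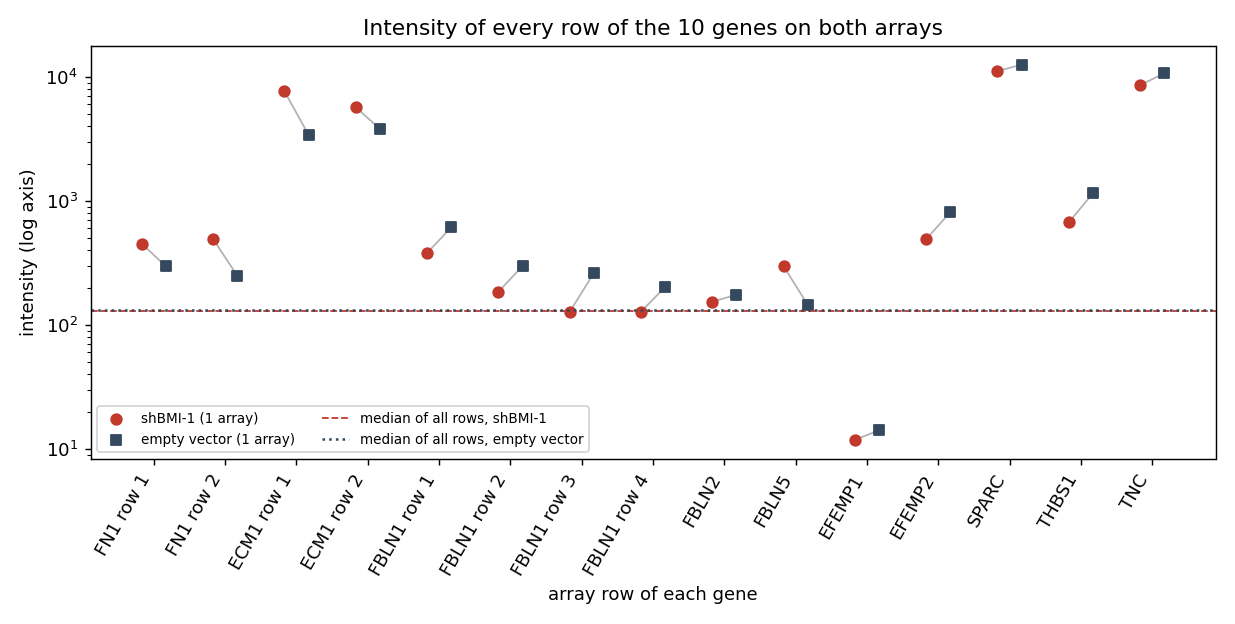
Intensity (log axis) of the 15 rows of the 10 genes, with the shBMI-1 array as circles and the empty vector array as squares, 1 value each; lines join the arrays and the horizontal lines are the array medians. Both FN1 rows, both ECM1 rows and FBLN5 are higher with shBMI-1, all other rows are lower, and EFEMP1 lies far below both medians.

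FN1 encodes fibronectin, the fibril-forming ligand of integrins. Its brighter row was at 453.0 with shBMI-1, against 296.0 with the empty vector, and its other row was at 493.4 with shBMI-1, against 249.6. Both rows were thus higher with shBMI-1, at log2 ratios of 0.61 and 0.98, and the mean ratio of 0.80 was 1.74-fold. That is 1.90 times the row SD of 0.42 at this level. Among the 1826 named genes with a mean intensity of 256 to 512, 4.93% had a ratio at least as high.

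ECM1 encodes a secreted glycoprotein of skin and other tissues that binds several matrix proteins, among them perlecan and fibulin 1. Its brighter row was at 7685 with shBMI-1, against 3413 with the empty vector. Its other row was at 5716 with shBMI-1, against 3798. The rows had log2 ratios of 1.17 and 0.59, so both were higher with shBMI-1 and the brighter one passed 2-fold. These ratios lay further apart than the row SD of 0.20 at this level. The mean log2 ratio was 0.88, or 4.42 times the row SD, and 0.479% of the 835 named genes above 4096 had a ratio at least as high. By this measure ECM1 stood furthest from 0 of the 10 genes. The measure sets a mean of 2 rows against an SD of single rows here, while 7 of the 10 genes had 1 row. Among all 632 genes past the limit with 2 rows, both rows were above 0 in 42.9% and both at least 1.5-fold higher in 2.69%. FN1 and ECM1 are among them.

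The fibulins did not go one way. FBLN5 encodes fibulin 5, which carries tropoelastin to microfibrils in elastic fibre assembly and binds integrins through an RGD site. It was at 297.7 with shBMI-1, against 145.0 with the empty vector, 2.05-fold higher in 1 row. The log2 ratio of 1.04 was 1.73 times the row SD of 0.60, and it was 0.83 with a pseudocount of 50 and 0.999 after loess normalization, both short of 2-fold. Among the 2060 named genes at 128 to 256, 3.74% had a ratio at least as high as that of FBLN5. EFEMP2 encodes fibulin 4, which recruits lysyl oxidase to elastic fibres. EFEMP2 was at 491.3 with shBMI-1, against 812.4 with the empty vector. Its log2 ratio of -0.73 was 2.44 times the row SD of 0.30 in size, and 2.71% of the 1552 named genes at 512 to 1024 had a ratio at least as low.

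FBLN1 encodes fibulin 1, a fibronectin and laminin binding protein made in several splice forms. Its brightest row was at 379.4 with shBMI-1, against 610.7 with the empty vector, and the next was at 184.1 with shBMI-1, against 298.4. The third row was at 126.8 with shBMI-1, against 261.7, and the dimmest was at 127.7 with shBMI-1, against 201.9. All 4 rows were lower with shBMI-1, with log2 ratios from -1.05 to -0.66. In the third and the dimmest row, the shBMI-1 value was below its array median. The spread among the FBLN1 rows was narrow beside the row SD of 0.60 at this level, and their mean ratio of -0.77 was 1.71-fold lower. Among the 20 genes with 4 rows past the limit, all rows were below 0 in 4 genes and at least 1.5-fold lower in 2, FBLN1 included. As single values, ratios of this size were not rare: 8.79% of the 2060 named genes at 128 to 256 were at least as low.

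FBLN2, which encodes the basement membrane and microfibril protein fibulin 2, was at 153.6 with shBMI-1, against 175.2 with the empty vector. Its log2 ratio of -0.19 was within the row SD of 0.60. EFEMP1 encodes fibulin 3, a protein best known from retinal drusen disease, and was at 11.8 with shBMI-1, against 14.1 with the empty vector. Its ratio of -0.26 was within the row SD of 0.72. No background values were used here, so whether EFEMP1 RNA was measured at all on either array is unknown.

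**Figure D2:**
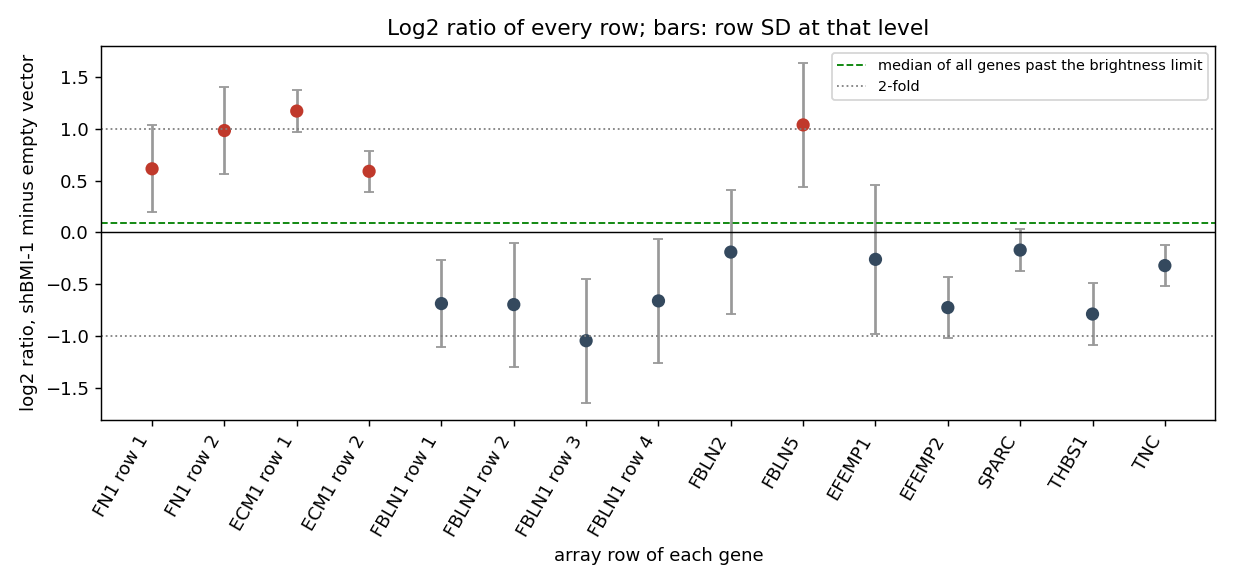
Log2 ratio of each row, shBMI-1 minus empty vector, in red above 0 and dark blue below, with bars of 1 row SD at that level. The 4 FBLN1 rows run from -1.05 to -0.66, the bars of FBLN2, EFEMP1 and SPARC cross 0, and the dashed line is the median of all genes past the brightness limit, 0.09.

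Among the matricellular genes, THBS1 showed the largest difference. It encodes thrombospondin 1, an inhibitor of angiogenesis that also activates latent TGF-beta. THBS1 was at 669.9 with shBMI-1, against 1157 with the empty vector, 1.73-fold lower. The log2 ratio of -0.79 was 2.65 times the row SD of 0.30 in size, and 1.93% of the 1552 named genes at 512 to 1024 were at least as low. TNC encodes tenascin C, a hexameric glycoprotein that loosens cell attachment to fibronectin. TNC was at 8571 with shBMI-1, against 10700.4 with the empty vector, a log2 ratio of -0.32 at a row SD of 0.20. Of the 835 named genes above 4096, 4.31% were at least as low as TNC. SPARC, a collagen-binding protein abundant in many melanomas, was at 11146 with shBMI-1, against 12542 with the empty vector. Its ratio of -0.17 was within the row SD of 0.20, and 13.3% of the genes above 4096 were at least as low.

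**Figure D3:**
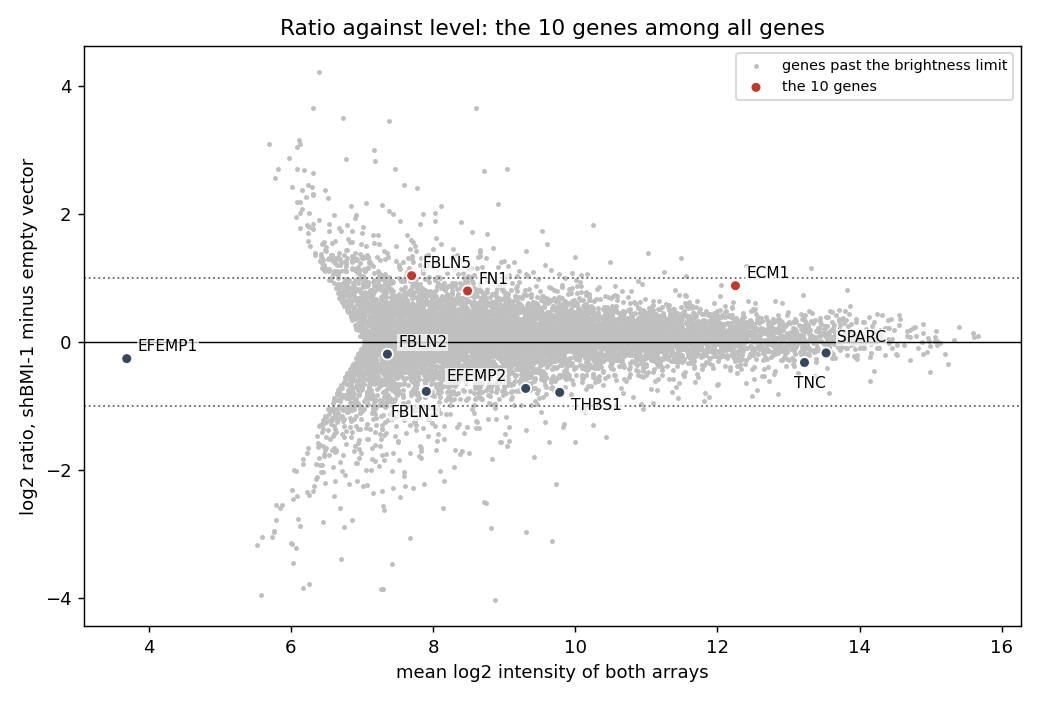
Log2 ratio, shBMI-1 minus empty vector, against the mean log2 intensity of both arrays, with every gene past the brightness limit in grey and the 10 genes labelled, in red above 0 and dark blue below. The grey cloud narrows as the level rises. ECM1 at 0.88 lies at its edge, FBLN5 at 1.04 lies at a level where the cloud is wider, and EFEMP1 is left of the limit.

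The direction of each of the 10 genes was the same under every setting in which it had a value: as deposited, after median centring, quantile or loess normalization, with a pseudocount of 16 or 50, and with the brightest row. For the 7 genes with 1 row, a pseudocount cannot turn the direction and the brightest row is the only row. Nor could a pseudocount or the brightest row turn FN1, ECM1 or FBLN1, whose rows all lay on one side of 0. Median centring moved every ratio alike, that of SPARC from -0.17 to -0.15, too little to turn any of the 10. Of these settings, only the quantile and loess normalizations could have turned a direction. The ratio of FN1 ran from 0.61 to 0.81 and that of ECM1 from 0.81 to 1.17, the upper end being its brightest row. THBS1 ran from -0.87 to -0.75, EFEMP2 from -0.80 to -0.67 and FBLN1 from -0.81 to -0.63. FBLN5 ran from 0.83 to 1.05, on both sides of 2-fold. SPARC ran from -0.22 to -0.15 and TNC from -0.37 to -0.30.

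**Figure D4:**
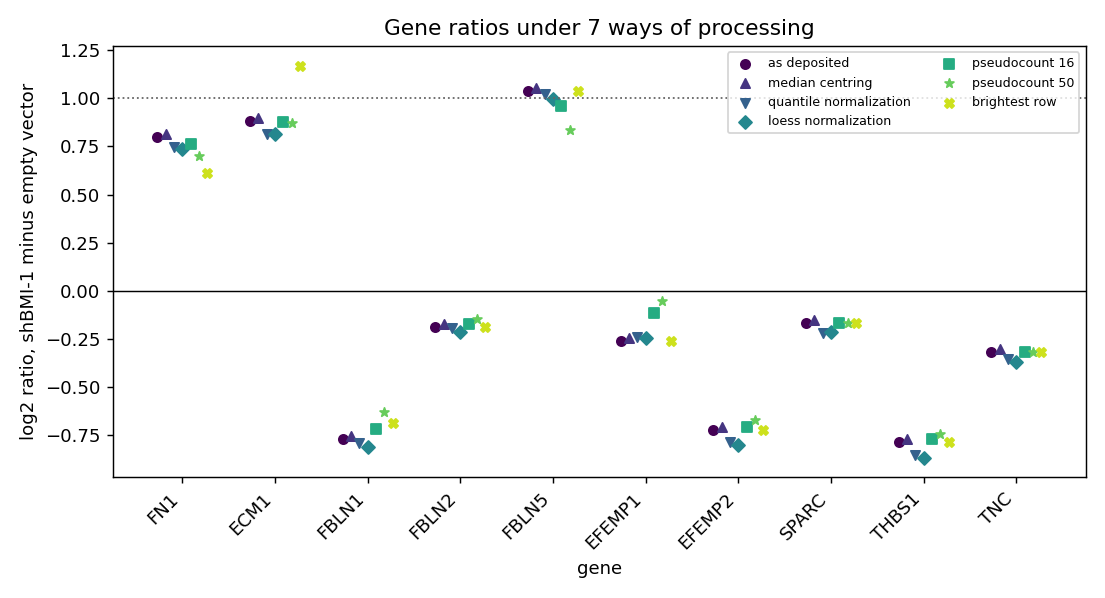
Log2 ratio of each of the 10 genes, shBMI-1 minus empty vector, under 7 ways of processing, with the dotted line at 2-fold higher. No gene crosses 0, FBLN5 lies on both sides of the dotted line, and ECM1 passes it with its brightest row at 1.17.

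Partners of these proteins were taken from 8 lists of related matrix genes, receptors and proteases. Of 105 listed genes 101 were measured and 52 passed the brightness limit. Above 0 were 23 of the 52, beside 60% of all genes past the limit, and below 0 were 29. Past 2-fold were 5, beside 6.78% of all genes. The largest difference was in BGN, which encodes the proteoglycan biglycan, at 227.4 with shBMI-1, against 1774 with the empty vector, 7.80-fold lower in 1 row. SPOCK1, a testican of the SPARC family, was at 89.2 with shBMI-1, below the array median, against 425.0 with the empty vector, 4.77-fold lower. Their log2 ratios of -2.96 and -2.25 stood beside a row SD of 0.30 and 0.60 at their levels.

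SPOCK1 and HMCN1 were the 2 genes past the limit among 9 measured relatives of the fibulins and SPARC, and HMCN1, a large fibulin, had a log2 ratio of 0.36. Of the 4 other thrombospondins and tenascins past the limit, 2 were above 0 and 2 below. THBS2, a close relative of THBS1, was at 220.3 with shBMI-1, against 116.5 with the empty vector, a ratio of 0.92 at a row SD of 0.60. The empty vector value of THBS2 was below the array median. TNXB, which encodes tenascin X, was at 688.2 with shBMI-1, against 1171 with the empty vector, a ratio of -0.77. THBS3 had a ratio of -0.08, and the cartilage gene COMP had 0.06 as deposited and -0.0017 after loess normalization. THBS2 and THBS1 had ratios of opposite sign, and TNXB and TNC were both below 0.

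Of 4 other matricellular genes past the limit, 3 were below 0. TGFBI, an integrin ligand induced by TGF-beta, was at 7610 with shBMI-1, against 10637 with the empty vector, a ratio of -0.48 at a row SD of 0.20. CCN1, a YAP-regulated integrin ligand, had a ratio of -0.52 and LGALS3, which encodes galectin 3, had 0.38. Of 12 measured matrix proteoglycan and link protein genes, 4 passed the limit and all 4 were below 0 (BGN among them), with HAPLN1, the link protein of hyaluronan and aggrecan, at -0.64. ACAN, also among the 4, reached the array median only with the empty vector, at 140.5, against 107.9 with shBMI-1. The medians of these 2 lists, each over 4 genes, were -0.36 and -0.51, against 0.09 over all genes past the limit. Without the limit they were -0.11 and -0.26. The matricellular median was -0.22 with a pseudocount of 16 and -0.20 with one of 50. With 50 it was the ratio of CCN2, a gene of that list, so the genes past the limit were no longer the same 4. When the limit was raised to the 75th percentile, the proteoglycan median was -1.62, over BGN (-2.96) and HAPLN3 (-0.27) alone.

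Elastic fibre and microfibril genes gave 6 above 0 and 5 below, none past 2-fold, with a median of 0.14, and of -0.03 when the limit was raised to the 75th percentile. MFAP2, a microfibril protein, was higher in both rows (0.30 and 0.67), and LTBP1, which tethers latent TGF-beta to the matrix, had a ratio of 0.46 within its row SD of 0.60. LTBP3 (-0.30) and EMILIN2 (-0.27) had the lowest ratios. Of 10 basement membrane genes, 4 were above 0 and 6 below, with LAMC1, the laminin gamma 1 chain, at -0.63 and AGRN, which encodes agrin, at -0.57. LAMB2 (0.34) and LAMB1 (0.18) had the highest ratios of that list. None of the 10 passed 2-fold, and LAMA4 and COL4A2, counted above 0, were below 0 after quantile or loess normalization.

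Of the receptor genes of these proteins, 8 of 15 measured passed the limit and none of the 8 differed by 2-fold. Of the 8, 4 were above 0 and 4 below, and the median was 0.0031 as deposited and -0.06 after loess normalization, when ITGA3 and ITGA5 were below 0. ITGA5, the fibronectin receptor alpha 5 chain, was at 4987 with shBMI-1, against 4815 with the empty vector, and ITGB1, its partner, was at 237.0 with shBMI-1, against 250.9. SDC1 (0.19) and ITGB3 (0.17) had the highest ratios and DDR2, a collagen receptor kinase, the lowest (-0.56, row SD 0.30), followed by SDC4 (-0.29, row SD 0.23). Of 9 proteases past the limit, 5 were above 0 and 4 below, MMP2 being below 0 after loess normalization (-0.0076). HTRA1, a secreted serine protease that can cut fibronectin, was at 1552 with shBMI-1, against 754.7 with the empty vector, 2.06-fold higher at a row SD of 0.25. Its log2 ratio was 0.96 after loess normalization, short of 2-fold. MMP14, a membrane-bound collagenase, had a ratio of 0.22. MMP7 was at 33.0 with shBMI-1, against 132.4 with the empty vector, and MMP3 was at 62.6 with shBMI-1, against 145.0. Both were below the array median with shBMI-1, and the log2 ratio of MMP3 was -0.79 with a pseudocount of 50.

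**Figure D5:**
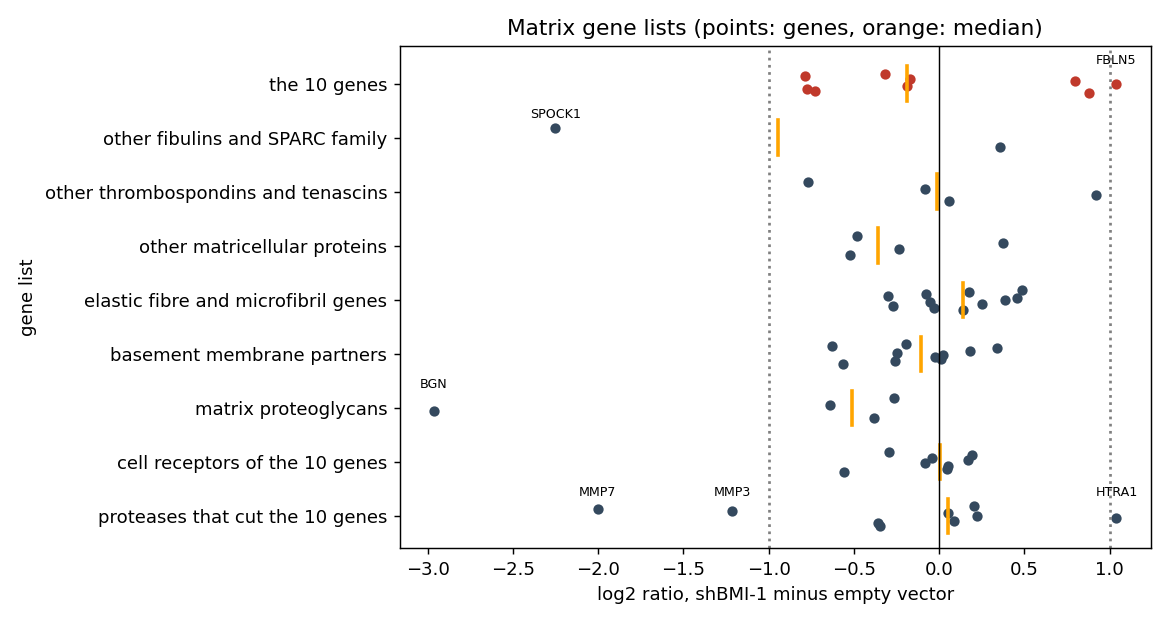
Log2 ratio, shBMI-1 minus empty vector, of the genes past the brightness limit in each list, with the list's median in orange and dotted lines at 2-fold; the 10 genes are in red. Only BGN, SPOCK1, MMP7, MMP3, HTRA1 and FBLN5 lie past 2-fold, and the receptors of the 10 genes run from -0.56 for DDR2 to 0.19 for SDC1.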

How the data were processed

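RNA of 2 A375 cultures was measured on 1 NimbleGen single-colour array each. Per the labels' protocols, double-stranded cDNA made from total RNA with oligo-dT primers was labelled with Cy3. The deposited intensity values are linear, and how they were scanned, summarised over probes and normalized is not given in the sources used here. Groups came from the sample titles. The platform's annotation named 18188 of 45033 rows by 1 symbol, and 26845 were unnamed here. Values were put on the log2 scale without a pseudocount, rows of one symbol were averaged, and ratios are shBMI-1 minus empty vector. The brightness limit was the array median on at least 1 array, and 8921 genes passed. The number of arrays limits the precision, and no test or p-value was computed.

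The 10 genes, the partner and marker lists and the naming rule were chosen with earlier results of these data known. The rule named all 10 genes, BMI1, and in each list the genes past 2-fold and the 2 highest and 2 lowest ratios past the limit. Other genes are named where their values had been seen. Of 9 measured melanocyte markers 3 passed the limit. Median ratios of the marker genes past the limit were -0.06 for melanocyte, -1.82 for fibroblast (1 gene), -0.83 for white blood cell and 0.39 for epithelial lists. Over all measured markers they were 0.04, -0.43, 0.12 and -0.05 in the same order, and -0.59 for the endothelial list, of which none passed. Alternatives were median centring, quantile and loess normalization (span 0.3, 3 iterations), pseudocounts of 16 and 50, the brightest row, other brightness limits, and thresholds of 1.5-fold and 3-fold. Promoter sequences are RefSeq's (GRCh38.p14), and protein sequences were not used. Python 3.11.15 with numpy 2.4.6, pandas 2.3.3, statsmodels 0.14.6 and matplotlib 3.10.9 was used.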

Additional observations from a re-analysis of the deposited data

How the results depend on the processing

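The median ratio of those of the 10 genes past the limit lay between -0.32 and -0.17 over the 8 alternatives that give it. The count of these genes past 2-fold was 1 (FBLN5) as deposited, 0 after loess normalization, with a pseudocount of 16 or 50 and when the limit was raised to the 75th percentile, and 2 (FBLN5 and ECM1) with the brightest row. At thresholds of 1.5-fold and 3-fold it was 6 and 0. At that higher limit, 5 of the 10 genes remained, and FBLN5 was not among them. The count of partner genes past 2-fold was 5 as deposited, 3 after loess normalization (BGN, MMP3 and SPOCK1; MMP7 kept a ratio of -1.99 but missed the brightness limit), 3 with a pseudocount of 50 (BGN, MMP7 and SPOCK1), 11 without a limit, and 2 at the higher limit (BGN and HTRA1). Without a limit, 101 partner genes were counted, and 1800 of all 16583 named genes were past 2-fold. The median ratio of all genes past the limit ran from 0.02 after loess normalization to 0.10 after median centring. No paired analysis was possible because each group had 1 array, and for the same reason no array could be left out.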

Other observations

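Different rows of one array often carried exactly the same intensity. On the shBMI-1 array 10920 of 45033 rows (24.2%) shared their value with another row, and on the empty vector array 10802 rows (24%) did. Of the 15 rows of the 10 genes, 5 shared their shBMI-1 value and 4 their empty vector value with other rows. The single FBLN5 row was one of them on both arrays: 2 other rows had its shBMI-1 value and 3 others, the MMP3 row among them, its empty vector value of 145.0. The rows of ECM1, SPARC, THBS1, TNC and EFEMP2 shared no value.

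Below the brightness limit, 6 partner genes were also past 2-fold. They were named after their values were seen. Such ratios were common among dim genes, and nothing is read from this count. Past 2-fold were 14.6% of all named genes below a mean intensity of 32, 22.4% at 32 to 64 and 17.9% at 64 to 128. VCAN, which encodes the proteoglycan versican, was at 116.6 with shBMI-1, against 54.3 with the empty vector, and SDC2, a syndecan, had a log2 ratio of 1.10. ITGAV, one of the integrin chains that bind the RGD site of fibronectin, was at 24.6 with shBMI-1, against 51.7 with the empty vector. ITGA8 had a ratio of -1.76. FBN2 and MFAP4, both microfibril genes, had ratios of -1.66 and -1.40. With a pseudocount of 50 all 6 were short of 2-fold, from -0.64 for MFAP4 to 0.68 for VCAN.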
